A study of Mus musculus with 9 samples.

Results

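The 10 genes described here encode fibronectin (Fn1), tenascin C (Tnc), the thrombospondins Thbs1, Thbs2 and Thbs3, osteonectin (Sparc), elastin (Eln) and the fibulins Fbln1, Fbln2 and Fbln5. They were chosen by name, and their values are those of every probe set of the deposited table that is annotated to exactly 1 gene symbol, that symbol being in the list. This gave 22 of the 34945 single-symbol probe sets of the table, and the 10 genes are 10 of 18193. The series measured transcript levels in CD45-depleted cells of the thymus of female C57BL/6J mice aged 6 to 8 weeks, on 1-colour Affymetrix 430 2.0 arrays. Its 3 groups have 3 arrays each: no damage (untreated), day 4 after SL-TBI and day 7 after SL-TBI, an irradiation labelled only by that abbreviation, given at 550 cGy from a cesium source and without a transfer of blood-forming cells. All 3 groups share the magnetic depletion of cells that carry CD45, the common leukocyte surface marker, and each sample pools cells of several mice, named ECs in the protocol without further explanation. Whether the arrays of a group come from separate pools is not stated, so p-values measure the spread between these samples, which may be technical.

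Fibronectin and elastin are structural proteins of the extracellular matrix: fibronectin forms fibrils that cells grip through integrins, and elastin gives tissue its recoil. Fibulins are secreted glycoproteins that link elastin and other matrix proteins, and Fbln5 guides the laying down of elastin onto microfibrils. Thrombospondins, tenascin C and osteonectin are called matricellular proteins, because they sit in the matrix and alter how cells attach, migrate and respond to growth factors rather than bear load. In the thymus the matrix is made largely by fibroblasts of the capsule and septa, with contributions from vessels and epithelium, and fibronectin and other matrix proteins line the routes along which thymocytes move.

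Values are log2 GCRMA values, in which a difference of 1 is a doubling and the table's lowest value is 2.27. A gene was read from its brightest probe set and tested if at least 3 of the 9 arrays reached a value of 4, used here as the detection level. All 10 genes passed this filter, and on their brightest probe sets each was above 4 on every array. Differences are day 4 minus untreated, day 7 minus untreated or day 7 minus day 4, with the standard error (SE) of limma, and adjusted p-values are Benjamini-Hochberg values of limma over all 10937 tested genes, called at 0.05. At day 4, 8 of the 10 genes were higher than in untreated mice and 2, Tnc and Thbs1, were lower. At day 7, 9 were higher and 0 lower, with Tnc not called. The exception to these directions under any scaling tried is Sparc at day 4, which turned on a scale set by fibroblast markers. The calls changed more: on that scale 2 genes were called higher at day 4 and 4 at day 7, and Tnc was called lower on both days. The shares on the deposited values stand beside a broad change of the whole preparation: 41.8% of all tested genes were higher and 21.4% lower at day 4 than in untreated mice, and 32.1% were higher and 22.0% lower at day 7. At day 4 all arrays lay above all untreated arrays for 8 of the 10 genes and below them for 2, against 44.7% and 22.9% of all tested genes, and at day 7 the counts were 8 and 0, against 37.5% and 24.9%. The median difference of the 10 genes was 1.55 at day 4, against 0.20 over all tested genes, and 1.31 at day 7, against 0.09.

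The samples were mixtures, and their makeup differed between groups. The mean of 9 thymocyte markers was 8.73 to 9.15 on untreated arrays, 3.15 to 3.35 at day 4 and 6.25 to 6.38 at day 7, and Ptprc, the gene of CD45, read 11.96 to 12.45, 4.18 to 5.22 and 9.26 to 9.64 in the same order. The mean of 10 fibroblast markers was 10.33 to 10.88 on untreated arrays, 11.69 to 12.21 at day 4 and 11.16 to 11.50 at day 7, while the 10 thymic epithelium markers ranged over 10.91 to 11.22, 11.45 to 11.53 and 11.29 to 11.42. The 10 endothelial markers averaged 4.06 to 5.83 in untreated samples, 4.93 to 5.66 at day 4 and 7.24 to 7.30 at day 7. The 5 mesothelial markers averaged 6.04 to 6.56, 7.14 to 7.59 and 7.75 to 8.38 in the same order, and the 8 pericyte and smooth muscle markers 7.25 to 7.47, 7.11 to 7.44 and 8.08 to 8.82. Of 7 measured platelet and megakaryocyte markers, cells known to store thrombospondin 1, 6 were below the detection level on every array of each group. The other, Pf4, averaged 4.46 in untreated samples, 4.80 at day 4 and 4.16 at day 7, and the part of platelets in the Thbs1 values was not tested. The probe sets at the 3-prime minus the 5-prime end of Actb, a measure of RNA quality, differed by 2.16 to 2.45 in untreated samples, 3.01 to 3.32 at day 4 and 2.30 to 2.71 at day 7. The part of cell makeup and RNA quality in the differences below was not tested, and in such bulk samples fewer cells of a type and less RNA per cell cannot be told apart.

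**Figure D1:**
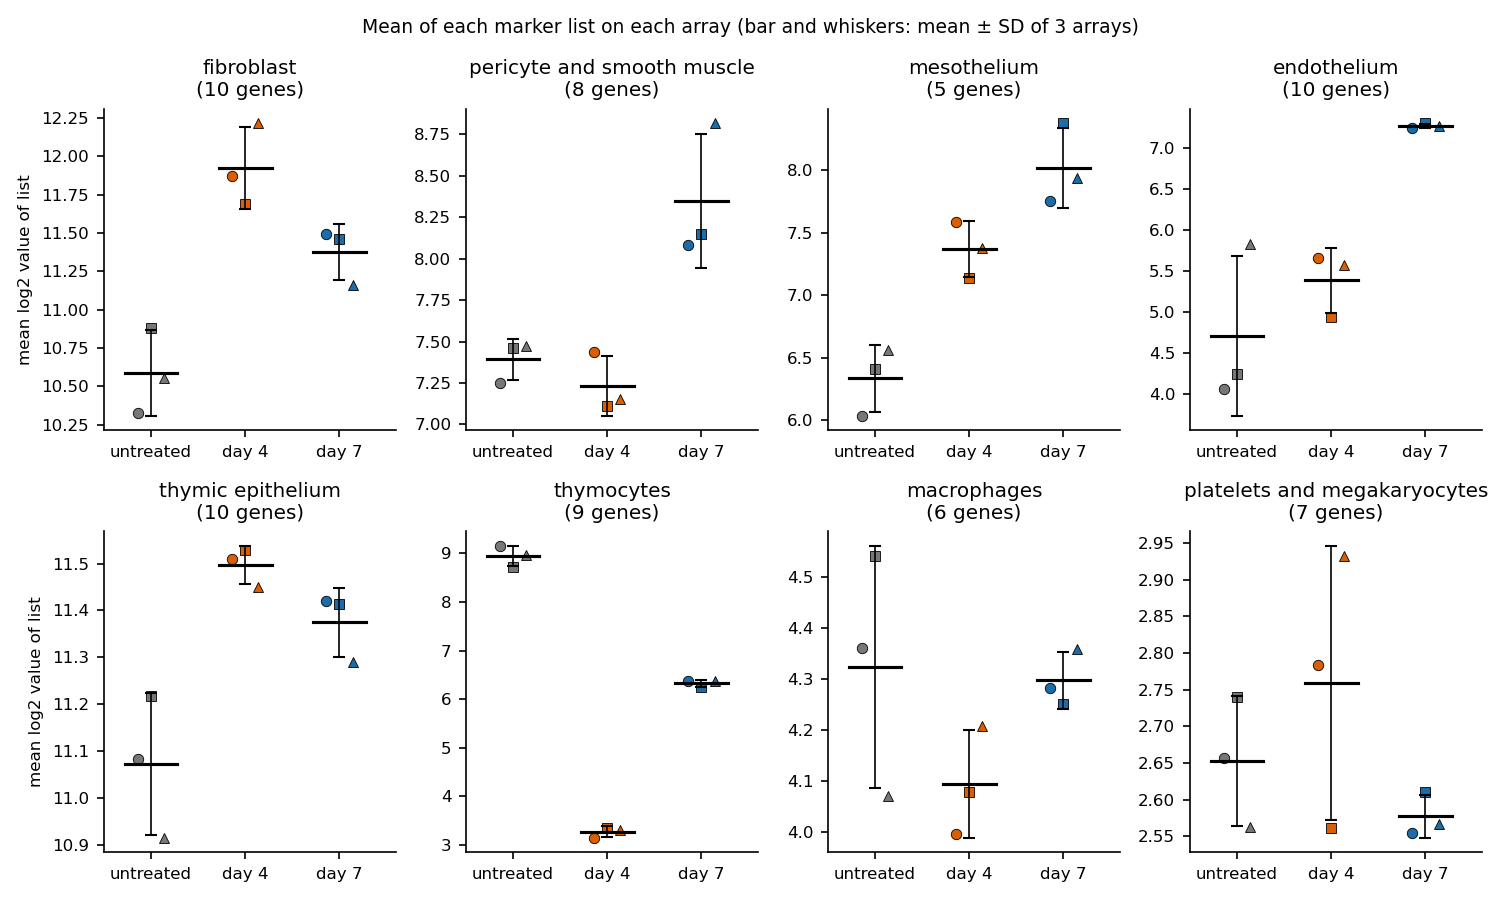
Mean log2 value of 8 marker lists on each array (vertical axis, log2, own range in each panel) for untreated, day 4 and day 7 samples. Circles, squares and triangles are replicates 1, 2 and 3, and bars with whiskers are mean ± SD. The fibroblast list was higher on all day 4 and day 7 arrays than on untreated arrays, and the thymocyte list was lowest at day 4.

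Fibronectin was higher on both days. Fn1 read 9.31, 10.03 and 9.40 on the untreated arrays, 10.97, 11.07 and 11.52 at day 4 and 10.51, 10.76 and 10.34 at day 7. No untreated array reached the lowest irradiated one, and the day 7 arrays lay between the other groups. The rise was 3.04-fold at day 4 (difference 1.60, SE 0.22, adjusted p 2.4e-04) and 1.94-fold at day 7 (0.96, SE 0.22, adjusted p 0.0055). Day 7 values were all below day 4 values, but the difference of -0.65 missed the threshold in limma (95% confidence interval -1.14 to -0.15, adjusted p 0.057). The dimmer Fn1 probe set read 3.48 ± 0.02 in untreated samples, 4.17 ± 0.17 at day 4 and 3.92 ± 0.22 at day 7 (SD, n = 3 each), the same order at values around the detection level.

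The 3 thrombospondin genes did not share a course. Thbs1 encodes a secreted inhibitor of vessel growth that also activates latent TGF-beta. Its brightest probe set read 5.65, 6.60 and 6.43 in untreated samples, 5.19, 5.45 and 5.43 at day 4 and 7.04, 7.78 and 7.83 at day 7. The 3 groups did not overlap: day 4 lay below every untreated array and day 7 above every one. Thbs1 was 1.82-fold lower at day 4 than in untreated mice (difference -0.87, SE 0.28, adjusted p 0.022) and 2.50-fold higher at day 7 than in untreated mice (1.32, SE 0.28, adjusted p 0.0036). Between day 4 and day 7 it was 4.57-fold higher at day 7 (2.19, SE 0.28, adjusted p 9.8e-04), the largest absolute difference between the irradiated groups among the 10 genes. The fall at day 4 is the less secure of these calls: its adjusted p ran from 2.5e-08 to 0.096 over 21 alternative settings, and the call was lost without untreated replicate 2 (-0.68), untreated replicate 3 (-0.77) or day 4 replicate 1 (-0.79). The other single-symbol Thbs1 probe set was below the detection level on all 9 arrays and was not tested. It read 2.44 ± 0.17 in untreated samples, 2.33 ± 0.05 at day 4 and 3.59 ± 0.30 at day 7 (SD, n = 3 each). Of the pericyte and smooth muscle markers, Acta2, encoding smooth muscle actin, had its lowest values at day 4 as well. It read 10.46 to 10.73 on untreated arrays, 8.36 to 8.92 at day 4 and 10.18, 10.58 and 12.63 at day 7. Tagln, a contractile-cell marker, read 8.93 to 9.24 on untreated arrays, 6.53 to 7.18 at day 4 and 9.08, 9.67 and 11.02 at day 7. For both genes day 7 replicate 3 stood above the other day 7 arrays. Kcnj8 and Abcc9 of the same list went the other way at day 4, with means of 4.55 and 8.21 in untreated samples, 6.63 and 10.06 at day 4 and 7.44 and 10.16 at day 7. In that list, 2 of 7 tested markers rose and 3 fell at day 4, 2 rose and 0 fell at day 7, and its part in the Thbs1 values was not tested.

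Thbs2, a thrombospondin of fibroblasts that lacks the TGF-beta activating sequence, had the largest rise of the 10 genes at day 4. Its brightest probe set read 6.38, 7.18 and 6.82 in untreated samples, 8.97, 8.75 and 9.14 at day 4 and 8.27, 8.38 and 8.45 at day 7. The 3 groups did not overlap, with day 4 highest. Thbs2 was 4.46-fold higher at day 4 (difference 2.16, SE 0.19, adjusted p 1.9e-05) and 2.97-fold higher at day 7 (1.57, SE 0.19, adjusted p 2.3e-04) than in untreated mice. The 2 dimmer Thbs2 probe sets rose alike, by 2.65 and 2.21 at day 4 and by 1.87 and 1.37 at day 7, in the limma fit of every probe set on its own (adjusted p 3.6e-06 to 2.9e-04). The decline between the irradiated groups was small on the brightest probe set, where day 7 minus day 4 was -0.58 (SE 0.19, adjusted p 0.048), and its adjusted p ran from 0.010 to 0.92 over the alternatives. That call was lost without untreated replicate 3 and without any 1 of the day 4 or day 7 arrays, with values of -0.69 to -0.49. On the dimmer probe sets it was -0.78 and -0.84 (adjusted p 0.011 and 0.0093).

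Thbs3 encodes a thrombospondin of the group that forms pentamers and was read by a single probe set. It had values of 5.35, 6.02 and 5.20 in untreated samples, 6.83, 6.71 and 7.23 at day 4 and 6.47, 6.58 and 5.87 at day 7. Day 4 stood clear of untreated, whereas day 7 replicate 3 lay below untreated replicate 2. The rise was 2.65-fold at day 4 (difference 1.40, SE 0.26, adjusted p 0.0013) and 1.73-fold at day 7 (0.79, SE 0.26, adjusted p 0.029). The day 7 call was lost without untreated replicate 1 (0.70), untreated replicate 3 (0.63), day 7 replicate 1 (0.71) or day 7 replicate 2 (0.65), with adjusted p-values of 0.0027 to 0.996 over the alternatives.

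**Figure D2:**
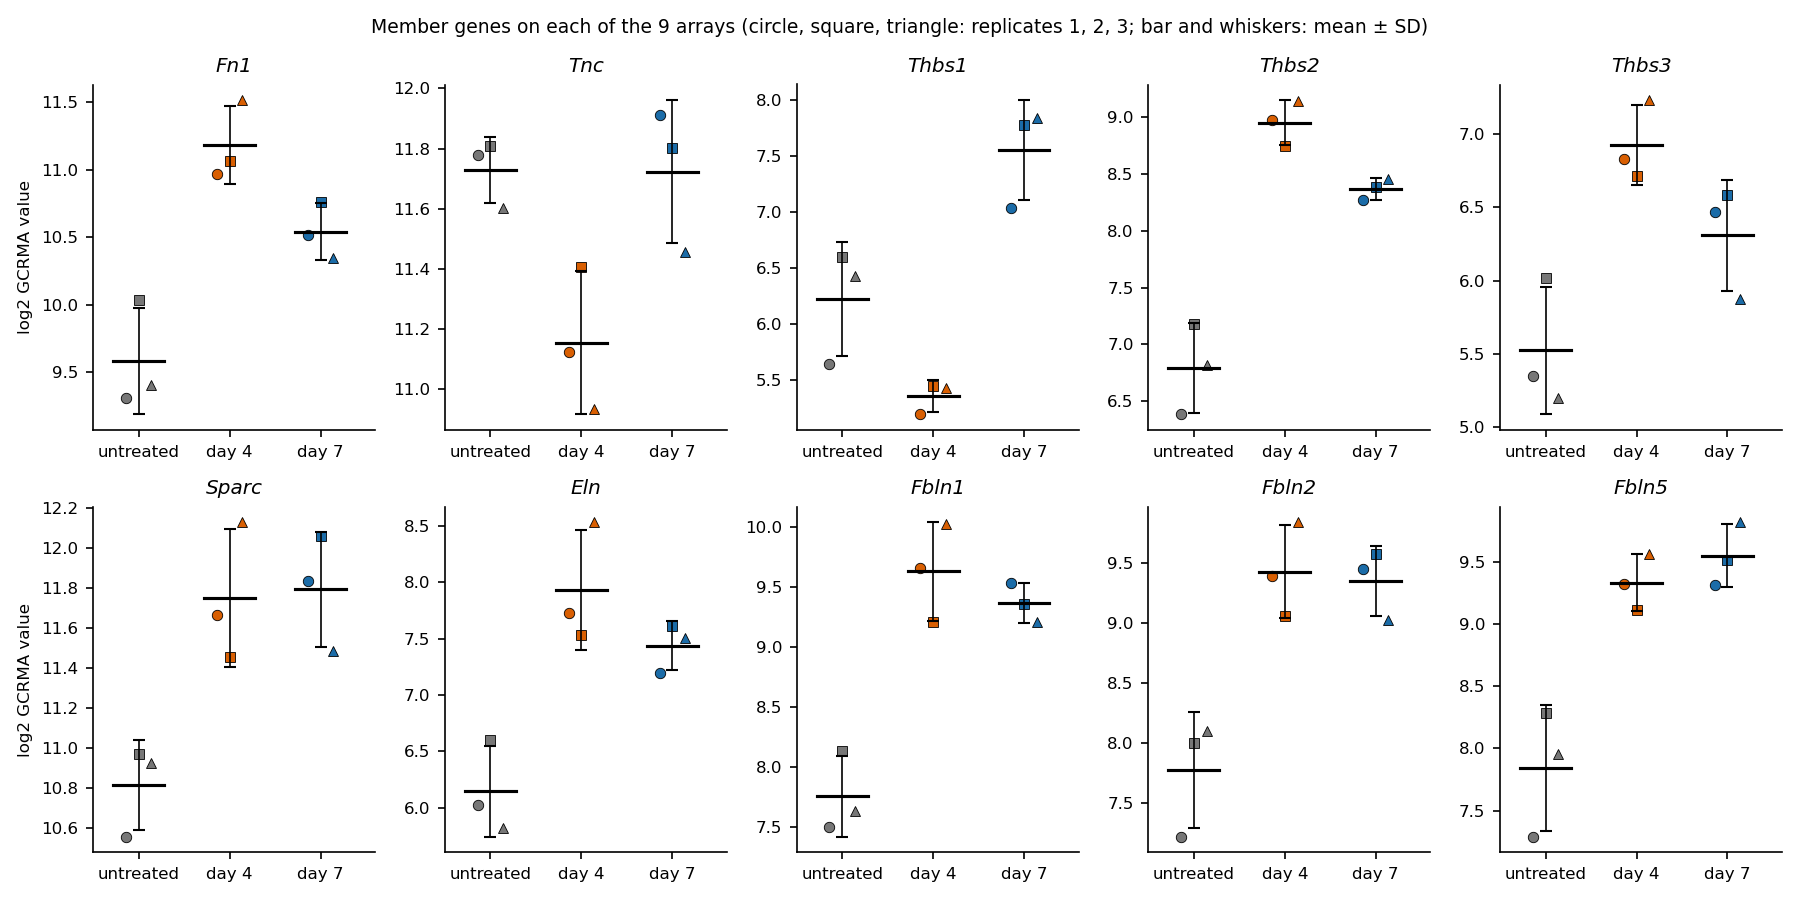
Log2 GCRMA value of the brightest probe set of each of the 10 genes (vertical axes, own range in each panel) for untreated, day 4 and day 7. Circles, squares and triangles are replicates 1, 2 and 3, and bars with whiskers are mean ± SD. Thbs1 and Tnc were lower at day 4 than in untreated samples, and the other 8 genes were higher.

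Tenascin C and osteonectin also parted. Tnc, a hexameric glycoprotein of wounds and of developing tissue, read 11.78, 11.81 and 11.60 in untreated samples, 11.12, 11.41 and 10.93 at day 4 and 11.91, 11.80 and 11.46 at day 7. All day 4 arrays were below all untreated and all day 7 arrays, while untreated and day 7 overlapped. Tnc was 1.49-fold lower at day 4 than in untreated mice (difference -0.57, SE 0.15, adjusted p 0.010) and 1.48-fold higher at day 7 than at day 4 (0.57, SE 0.15, adjusted p 0.026). The call between the irradiated groups was lost without day 4 replicate 1 (0.55) or 3 (0.46) and without day 7 replicate 1 (0.47) or 2 (0.53), and its adjusted p ran from 0.0026 to 0.086 over the alternatives. Day 7 and untreated means differed by -0.01 (95% confidence interval -0.35 to 0.34, adjusted p 0.98).

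The dimmer Tnc probe set gave another picture of day 7. It read 8.17, 8.58 and 8.08 in untreated samples, 7.68, 7.44 and 7.05 at day 4 and 7.89, 7.68 and 7.58 at day 7. Every array of both irradiated groups lay below every untreated array. In the limma fit of every probe set on its own it was lower at day 4 (-0.89, SE 0.19, adjusted p 0.0029) and at day 7 (-0.56, SE 0.19, adjusted p 0.032) than in untreated mice. The 2 Tnc probe sets therefore shared the fall at day 4 and disagreed at day 7.

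**Figure D3:**
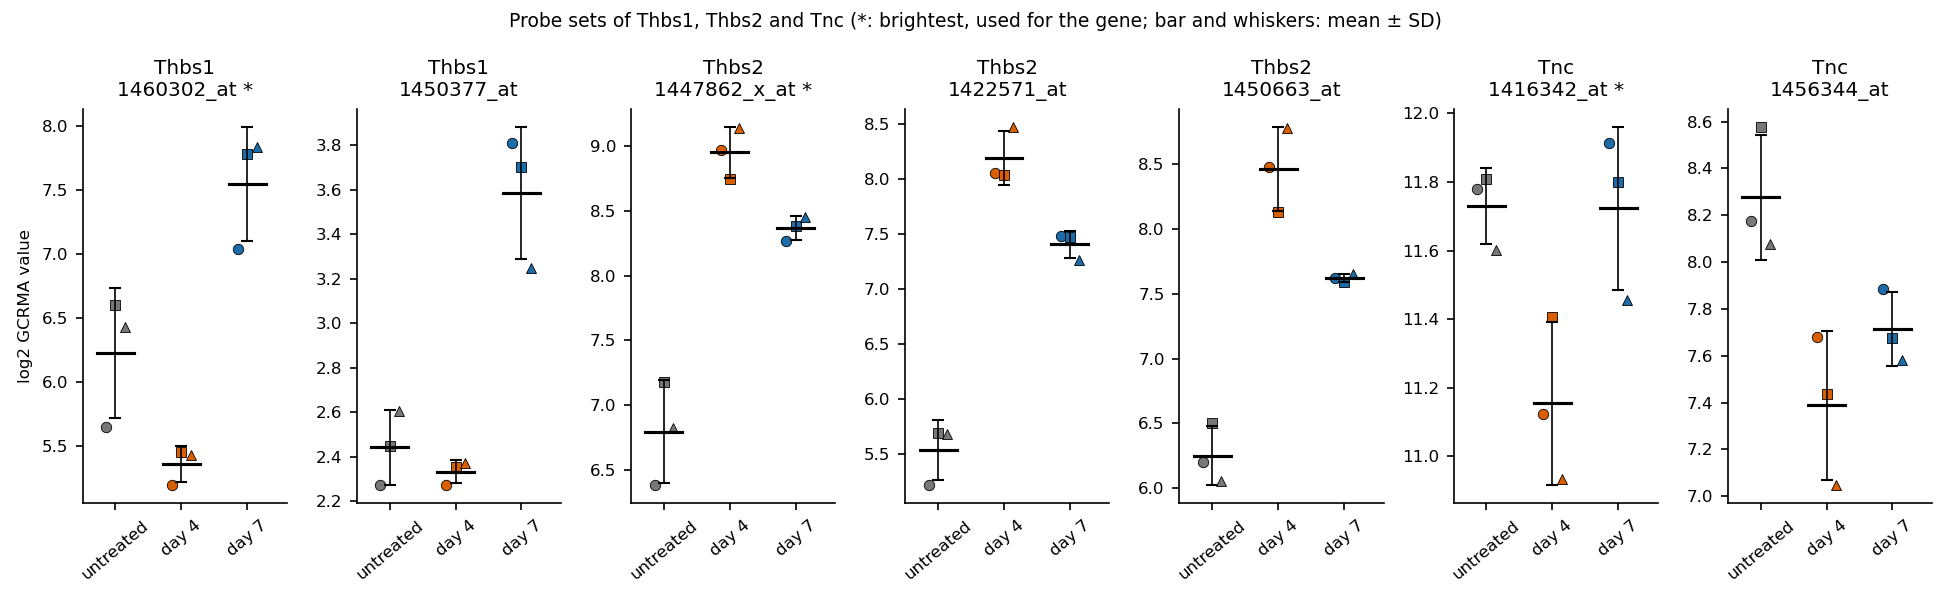
Log2 GCRMA values of every single-symbol probe set of Thbs1, Thbs2 and Tnc (vertical axes, own range in each panel) in untreated, day 4 and day 7 samples. Points are arrays (circle, square and triangle for replicates 1, 2 and 3), bars with whiskers are mean ± SD, and an asterisk marks the brightest probe set. The 3 Thbs2 probe sets share 1 order of groups, the 2 Tnc probe sets differ at day 7, and the dimmer Thbs1 probe set stays below 4.

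Sparc, a collagen-binding glycoprotein, read 10.55, 10.97 and 10.92 in untreated samples, 11.67, 11.45 and 12.13 at day 4 and 11.84, 12.06 and 11.49 at day 7. All 6 irradiated arrays were above all 3 untreated arrays, and the irradiated groups overlapped. Sparc was 1.91-fold higher at day 4 (difference 0.94, SE 0.21, adjusted p 0.0037) and 1.97-fold higher at day 7 (0.98, SE 0.21, adjusted p 0.0038). A further probe set gave 1.02 and 1.07 (adjusted p 0.0014 and 0.0016), and the last of its 3 lay at the floor on every array. Relative to fibroblast markers the day 4 difference of Sparc was -0.40 (adjusted p 0.14).

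The proximal promoters of Thbs2, which had the largest rise at day 4, and of Tnc, which fell then, are shown because these genes moved in opposite directions in the same samples. The sequences are from RefSeq (GRCm38.p6) and cover the 250 bases before an annotated start site, both on the minus strand and written 5′ to 3′. Capitals mark matches on either strand to TATANA, which resembles the TATA box of core promoters, to the GC box letters GGGCGG, or to the letters CCAAT of the CCAAT box.
Thbs2, chr17:14694263-14694512: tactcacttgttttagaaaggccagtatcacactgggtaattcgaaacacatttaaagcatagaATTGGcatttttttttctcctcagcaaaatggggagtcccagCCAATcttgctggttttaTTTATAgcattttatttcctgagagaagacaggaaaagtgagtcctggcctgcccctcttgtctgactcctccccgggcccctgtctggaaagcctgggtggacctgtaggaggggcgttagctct
Tnc, chr4:64046937-64047186: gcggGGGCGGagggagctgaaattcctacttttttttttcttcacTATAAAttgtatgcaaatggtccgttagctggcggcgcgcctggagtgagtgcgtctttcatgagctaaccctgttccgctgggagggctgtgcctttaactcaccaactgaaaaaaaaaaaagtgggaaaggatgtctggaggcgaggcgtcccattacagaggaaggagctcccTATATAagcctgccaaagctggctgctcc
The Tnc window shown holds TATANA at -205 and, overlapping itself on both strands, at -29 from the start site, and a GC box at -246. Tnc also has a window for another annotated start site (chr4:64047016-64047265), with TATANA at -126 and a GC box at -167. The positions therefore depend on the start site used. The Thbs2 window holds TATANA at -126 and CCAAT at -186 and -144. Windows were found for 7 of the 10 genes, 10 windows in all, and Fn1, Thbs1 and Eln had none in the table. Of the 10 windows, some of which overlap, TATANA matched in 3, GGGCGG in 6 and CCAAT in 3. The AP-1 letters TGANTCA and the TEAD letters GGAATG matched in 0 of the 10. Among all 32851 windows, the share with a match was 22.6% for TATANA, 32.7% for GGGCGG, 33.8% for CCAAT, 6.75% for TGANTCA and 12.6% for GGAATG. A match is a description of the letters and not evidence of a bound factor.

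Elastin and the 3 fibulins were higher on both days, and none was called different between day 7 and day 4. Eln read 6.02, 6.60 and 5.82 in untreated samples, 7.73, 7.53 and 8.53 at day 4 and 7.19, 7.61 and 7.51 at day 7. Both irradiated groups lay above untreated and overlapped with each other. The rise of Eln was 3.45-fold at day 4 (difference 1.79, SE 0.28, adjusted p 5.4e-04) and 2.45-fold at day 7 (1.29, SE 0.28, adjusted p 0.0044). Its other probe set lay at the floor on all arrays.

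Fbln1, a fibulin that binds fibronectin, read 7.50, 8.13 and 7.63 in untreated samples, 9.66, 9.21 and 10.02 at day 4 and 9.53, 9.36 and 9.21 at day 7. Every irradiated array was above every untreated array by more than the spread within any of the groups. The rise was 3.67-fold at day 4 (difference 1.88, SE 0.23, adjusted p 1.2e-04) and 3.06-fold at day 7 (1.61, SE 0.23, adjusted p 4.8e-04). Its 2 dimmer probe sets rose by 1.83 and 1.34 at day 4 and by 1.72 and 1.08 at day 7.

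Fbln2, which is found in basement membranes and vessel walls, read 7.22, 8.00 and 8.10 in untreated samples, 9.39, 9.06 and 9.84 at day 4 and 9.45, 9.58 and 9.02 at day 7. The irradiated groups overlapped with each other and not with untreated. Fbln2 was 3.14-fold higher at day 4 (difference 1.65, SE 0.27, adjusted p 7.5e-04) and 2.97-fold higher at day 7 (1.57, SE 0.27, adjusted p 0.0014). Fbln5 read 7.29, 8.28 and 7.96 in untreated samples, 9.32, 9.11 and 9.57 at day 4 and 9.31, 9.51 and 9.82 at day 7. It was the fibulin whose day 7 mean was above its day 4 mean, though the 2 groups overlapped (0.22, 95% confidence interval -0.34 to 0.77, adjusted p 0.54). Fbln5 was 2.81-fold higher at day 4 (1.49, SE 0.25, adjusted p 7.4e-04) and 3.26-fold higher at day 7 (1.70, SE 0.25, adjusted p 5.6e-04). A further probe set of each, Fbln2 and Fbln5, stayed at the floor.

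Between the irradiated groups, 2 of the 10 genes were higher at day 7 than at day 4 (Thbs1 and Tnc) and 1 was lower (Thbs2), against 9.78% and 17.6% of all tested genes. The median of the 10 differences was -0.17, against -0.10 over all tested genes. Fn1, Thbs2 and Thbs3 had all day 7 arrays below all day 4 arrays, as did 33.8% of all tested genes, and Thbs1 and Tnc had all of them above, as did 17.9%. Sparc and Fbln2 differed by 0.04 (95% confidence interval -0.42 to 0.51) and -0.08 (-0.70 to 0.54), Fbln1 by -0.26 (-0.78 to 0.25) and Eln by -0.50 (-1.13 to 0.14). Both comparisons with untreated mice share the same 3 untreated arrays.

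**Figure D4:**
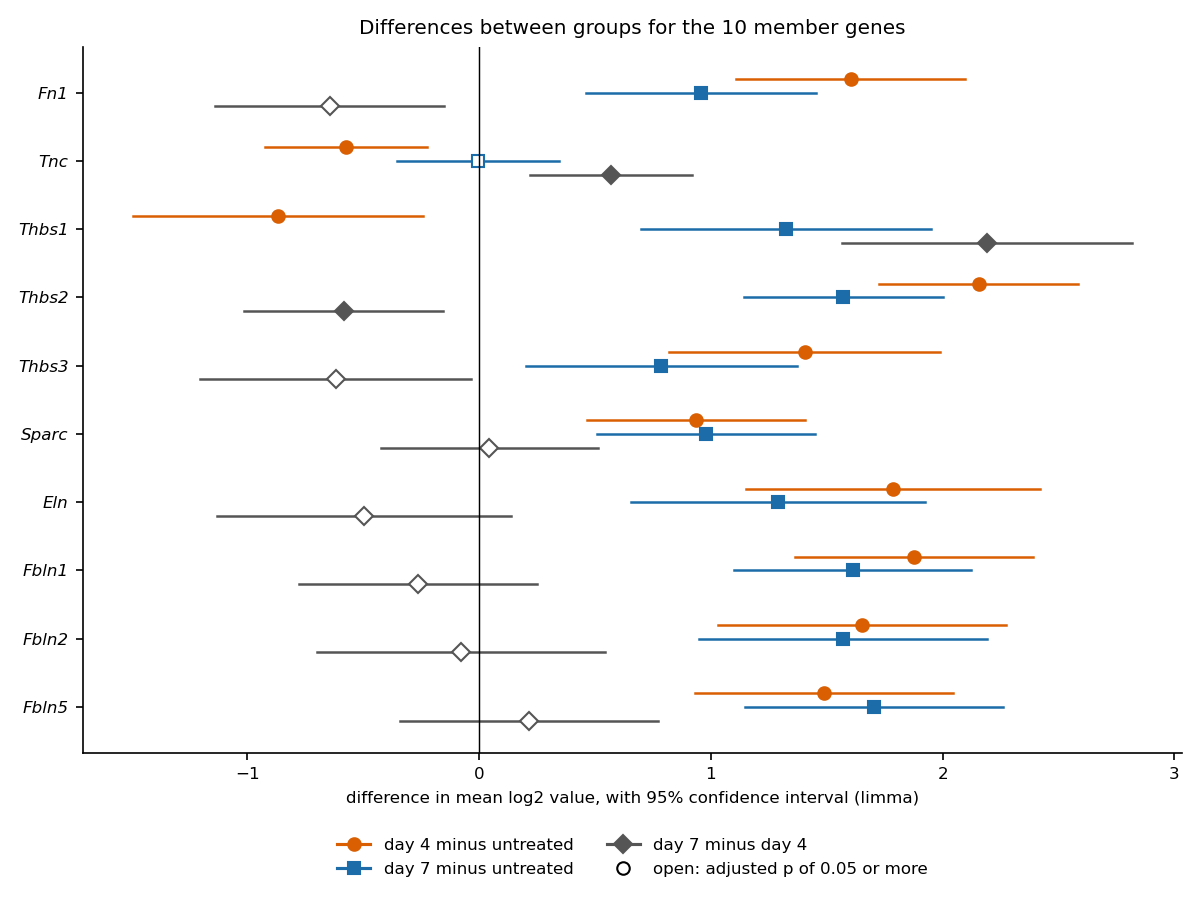
Differences in mean log2 value (horizontal axis, with 95% confidence intervals) of the 10 genes for day 4 minus untreated (circles), day 7 minus untreated (squares) and day 7 minus day 4 (diamonds). Filled marks passed an adjusted p of 0.05 in limma and open marks did not. Against untreated, Thbs1 lies at -0.87 at day 4 and 1.32 at day 7, and Tnc at -0.57 and -0.01.

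Within the untreated and day 4 groups, most of the 10 genes shared their highest and lowest array. Untreated replicate 1 had the lowest untreated value in 7 of the 10 genes and untreated replicate 2 the highest in 9. At day 4, replicate 3 had the highest value in 8 genes and replicate 2 the lowest in 7. The share of all tested genes with these orders was not computed, so the counts cannot be read as particular to the 10 genes. The fibroblast marker mean had its highest and lowest array in the same places in these groups, with 10.33, 10.88 and 10.55 on untreated arrays and 11.87, 11.69 and 12.21 at day 4. Other marker lists shared part of this order. The endothelial and mesothelial means were also lowest on untreated replicate 1 (4.06 and 6.04) and day 4 replicate 2 (4.93 and 7.14). Untreated replicate 2 was also highest for thymic epithelium (11.22) and neutrophil markers (8.48). At day 4, replicate 2 was instead the highest for thymic epithelium (11.53). At day 7 the genes did not share 1 highest array: the highest value fell on replicate 2 in 5 genes, replicate 3 in 3 and replicate 1 in 2, while the fibroblast mean was 11.50, 11.46 and 11.16. The profiles most alike within the list were those of Fn1 and Thbs3, with a root mean square difference of 0.16 over the 9 arrays after each gene's mean was removed. Those least alike were Thbs1 and Thbs2, at 1.39.

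Each array was also centred on the mean of the 10 fibroblast markers, a scale on which the median of all tested genes moved to -1.14 at day 4 and -0.70 at day 7. The markers were Pdgfra, Pdgfrb, Lum, Dcn, Col1a1, Col1a2, Col3a1, Dpt, Pi16 and Mfap5, and several of these are collagen or other matrix genes themselves. Centring on them also removes a change shared by matrix genes, so it does not measure the amount of fibroblasts alone. On this scale, 2 of the 10 genes were higher and 2 lower at day 4 than in untreated mice, against 8 and 2 on the deposited scale. Of all 10937 tested genes, 237 were higher and 8557 lower at day 4 on the fibroblast scale, so a lower call was common there and a higher call rare. Thbs2 (0.82, SE 0.25, adjusted p 0.0040) and Fbln1 (0.54, SE 0.25, adjusted p 0.047) were the higher genes, and Tnc (-1.91, adjusted p 1.8e-07) and Thbs1 (-2.20, adjusted p 2.5e-08) the lower ones. Sparc turned to -0.40 (SE 0.25, adjusted p 0.14), and Fn1, Thbs3, Eln, Fbln2 and Fbln5 had values of 0.07 to 0.45 that were not called. At day 7, 5 of the 9 rises were not called on this scale: Fn1 (0.17, adjusted p 0.55), Thbs1 (0.54, adjusted p 0.093), Thbs3 (0.0016, adjusted p 0.996), Sparc (0.19, adjusted p 0.50) and Eln (0.51, adjusted p 0.094). The other 4 genes were higher (Thbs2 at 0.79, Fbln1 at 0.83, Fbln2 at 0.79 and Fbln5 at 0.92) and 1 was lower (Tnc at -0.79, adjusted p 0.013). Among all tested genes, 413 were higher and 6243 lower at day 7 on this scale. Between day 7 and day 4, Thbs1 (2.74), Tnc (1.12) and Fbln5 (0.77, adjusted p 0.034) were higher at day 7 and 0 were lower. In that comparison 2438 of all 10937 tested genes were higher and 200 lower. Centring on the 10 epithelial markers instead lost the calls of Sparc at day 4 (0.51) and Thbs3 at day 7 (0.48) and turned no difference from untreated mice.

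**Figure D5:**
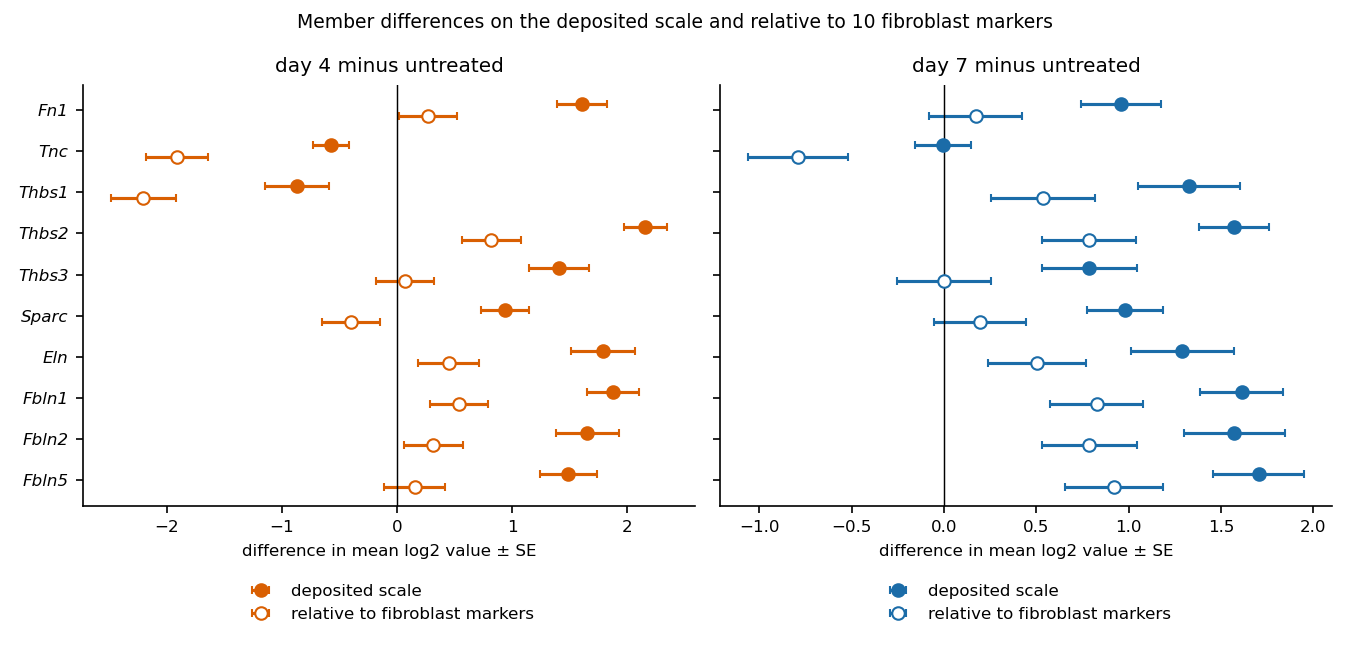
Differences from untreated at day 4 (left) and day 7 (right) in mean log2 value ± SE (horizontal axes) for the 10 genes, on the deposited scale (filled) and relative to the mean of 10 fibroblast markers (open). Of the genes that stay above 0 on both scales and both days, Thbs2 and Fbln1 were called higher in limma each time. Sparc turns to -0.40 at day 4, and Thbs1 and Tnc move further below 0 at day 4.

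Genes that build elastic fibres with elastin and the fibulins were mostly higher as well. Of 13 listed, 11 were tested, and 8 rose at day 4 and 9 at day 7, with 0 lower on either day (medians 1.72 and 1.07). Over all tested genes, 41.8% rose at day 4 and 32.1% at day 7. At day 7 against day 4, 3 of the 11 were lower and 0 higher, against 17.6% and 9.78% of all tested genes. Fbln7, a short fibulin, was below the detection level on every untreated array and at least 3.68-fold higher at day 4 (adjusted p 1.7e-05) and at least 1.68-fold higher at day 7 (adjusted p 9.6e-04). Emilin2, a glycoprotein of the elastic fibre surface, averaged 8.63 ± 0.38 at day 4 and 7.65 ± 0.44 at day 7, against 6.43 ± 0.58 in untreated samples (SD, n = 3 each). Its differences were 2.20 (adjusted p 3.8e-04) and 1.23 (adjusted p 0.011). The list shares Mfap5 with the fibroblast markers.

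Of 17 other matricellular genes listed, 11 were tested: 5 rose and 2 fell at day 4, and 5 rose and 0 fell at day 7 (medians 0.38 and 1.01). Over all tested genes 41.8% rose and 21.4% fell at day 4, so the day 4 counts are near the background, and 32.1% rose and 22.0% fell at day 7. Tnxb, another tenascin, rose by 2.64 at day 4 (SE 0.36, adjusted p 2.6e-04) and 1.41 at day 7 (adjusted p 0.010), in the opposite direction to Tnc at day 4. Vtn, encoding the adhesive protein vitronectin, averaged 6.07 ± 0.29 at day 4 and 6.25 ± 0.15 at day 7, against 4.23 ± 0.72 in untreated samples (SD, n = 3 each). Its differences were 1.84 (adjusted p 8.7e-04) and 2.02 (adjusted p 7.9e-04). Smoc1, a relative of Sparc, was below the detection level on every day 4 array and at least 1.24-fold lower there than in untreated mice (adjusted p 0.015). Its untreated values of 3.96, 4.41 and 4.56 also lay around that level. At day 7 it read 3.02, 2.62 and 5.05 and was not called against untreated.

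Ccn1, a matricellular integrin ligand, had the same order of groups as Thbs1, though it was not among the 2 genes most similar to Thbs1 over the 9 arrays. It read 10.08, 11.00 and 11.23 in untreated samples, 8.26, 9.81 and 9.96 at day 4 and 11.69, 11.86 and 11.80 at day 7. The 3 groups did not overlap, and day 4 replicate 1 stood well below the other arrays. Ccn1 was lower at day 4 than in untreated mice (-1.42, SE 0.44, adjusted p 0.019), was not called at day 7 (1.01, SE 0.44, adjusted p 0.080) and was higher at day 7 than at day 4 (2.44, SE 0.44, adjusted p 0.0050). Ccn2, the related connective tissue growth factor and a gene named after its values were seen, was also higher at day 7 than at day 4 (1.93, SE 0.40, adjusted p 0.0090) and than in untreated mice (1.84, adjusted p 0.0045). At day 4 it differed from untreated by -0.09 (adjusted p 0.86).

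Of 13 receptor genes listed for these proteins, 9 were tested: 4 rose and 1 fell at day 4, and 5 rose and 2 fell at day 7 (medians 0.62 and 0.51). Beside 41.8% and 21.4% of all tested genes at day 4 and 32.1% and 22.0% at day 7, counts of this size in 9 genes do not set the list apart. Cd36, a receptor of thrombospondin 1 found on small vessels and other cells, read 5.70, 5.98 and 8.14 in untreated samples, 7.91, 7.17 and 6.99 at day 4 and 9.61, 9.93 and 9.50 at day 7. Its day 7 arrays stood above all others, by 3.08 over untreated (SE 0.56, adjusted p 0.0018), and untreated replicate 3 was far above the other untreated arrays. The same array had the highest untreated endothelial mean, 5.83, against 4.06 and 4.24, and the part of endothelial cells in the Cd36 value was not tested. Itgb5, an integrin subunit that pairs with the alpha v chain, rose by 1.75 at day 4 (adjusted p 1.4e-05) and 1.28 at day 7 (adjusted p 1.7e-04). Itga4, a fibronectin-binding integrin chain carried by many leukocytes, fell by 4.14 at day 4 (adjusted p 5.9e-07) and by 3.30 at day 7 (adjusted p 1.0e-05), and Ptprc was lower on the same arrays. The part of leukocytes in the Itga4 value was not tested. Cd47, another thrombospondin receptor, was lower at day 7 (-0.35, SE 0.08, adjusted p 0.0070) and differed by -0.01 at day 4 (adjusted p 0.93).

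For each of the 10 genes, the tested genes outside the list with the smallest root mean square difference over the 9 arrays were identified as a description, each profile taken relative to its own mean. Sema3c, a secreted guidance protein, was closest to Fn1 (0.10), and Ephx1, a detoxifying hydrolase, was closest to Thbs2 (0.09). Thbs1 had no neighbour as close: the nearest were Maff, a small Maf transcription factor, at 0.30 and Aqp7, a glycerol channel, at 0.31. Pcdh17 was closest to Tnc (0.11), Plat, encoding tissue plasminogen activator, to Sparc (0.11) and the growth factor gene Igf1 to Fbln1 (0.09). Ackr3, a scavenging chemokine receptor, was closest to Eln (0.14), Cd55, a complement regulator, to Thbs3 (0.10), Nr2f2, a nuclear receptor, to Fbln2 (0.11) and the T-box gene Tbx18 to Fbln5 (0.09). Next in order came Tmem150a for Fn1 (0.12), Ppp2cb for Tnc (0.15), Nudt6 for Thbs2 (0.09), the laminin chain gene Lama2 for Thbs3 (0.14), Pmp22 for Sparc (0.12), Zfhx4 for Eln (0.15), Pla2r1 for Fbln1 (0.10), Thbd for Fbln2 (0.11) and Sema5a for Fbln5 (0.15).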

How the data were processed

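The authors' deposited table holds 1 log2 value per probe set and array for 9 arrays. GCRMA, a method that removes background by probe sequence, makes arrays comparable and merges probes, is named in the submitters' processing notes. Its version is not given here, and base 2 is inferred from the range of the table. Of 45101 probe sets, 64 were controls, 34945 had a single gene symbol, 932 several and 9160 none. Each gene was read from its single-symbol probe set with the highest mean, and 10937 of 18193 genes had a value of at least 4 on at least 3 arrays. Limma 3.58.1 in R 4.3.3 fitted all 9 arrays with group as the only term, checked on simulated data, and p-values were adjusted with Benjamini-Hochberg over all tested genes. Where all arrays of 1 group lay below 4, the fold is a lower bound taken against 4. Precision is limited by the number of arrays.

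The 10 genes, the partner and marker lists and the tests were chosen with earlier results of these data known. Named genes were the 10 members, up to 4 called genes of each partner list and the 2 most similar genes of each member, with Ccn2 added after its values were seen. The markers Ptprc, Pf4, Acta2, Tagln, Kcnj8 and Abcc9 were also given by name, outside these rules. Alternatives changed the filter, the probe set rule, the variance model, the scaling, the arrays fitted and the replicate block. Python 3.11.15 with matplotlib 3.10.9 was used for figures.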

Additional observations from a re-analysis of the deposited data

Results flagged for a closer look

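For 3 genes the effect at day 7 differed from the effect at day 4, tested as day 7 minus day 4 in limma: 2.19 for Thbs1 (adjusted p 9.8e-04), 0.57 for Tnc (adjusted p 0.026) and -0.58 for Thbs2 (adjusted p 0.048). The Thbs1 call held in all 21 alternatives (adjusted p 1.1e-09 to 0.0092), and the other calls did not. A probe set that is annotated to both Pald1 and Thbs1 entered no comparison but showed signal: it averaged 8.71 ± 0.33 at day 4 and 10.93 ± 0.38 at day 7, against 9.84 ± 0.46 in untreated samples (SD, n = 3 each). Its lowest day 7 value, 10.51, was above every untreated array, the order of groups is that of the brightest single-symbol Thbs1 probe set, and which gene it reads was not tested.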

How the results depend on the processing

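Over 21 alternatives, 568 of 630 values of the 30 member differences kept their direction and their side of the threshold, 42 lost a call, 8 gained one and 12 turned direction. The 8 rises at day 4 and 9 at day 7 became 2 and 4 on the fibroblast scale, which also gave 1 lower gene at day 7 in place of 0 and left 3 higher and 0 lower between day 7 and day 4. Leaving out 1 array at a time gave 8 rises and 1 to 2 falls at day 4, 8 to 9 rises and 0 falls at day 7, and 1 to 2 rises and 0 to 2 falls between day 7 and day 4. The 2 falls at day 4 became 1 without the filter on dim genes or with array weights, through Thbs1. Between day 7 and day 4, the 2 rises became 1 without the filter or with the mean of all probe sets, through Tnc. The 1 fall there, Thbs2, became 0 without the filter, with every probe set on its own, after quantile normalization, after centring on tested genes or on epithelial or fibroblast markers, and with a replicate block, and 2 with Fn1 at a detection level of 6, with the mean of all probe sets, an intensity trend, array weights or the 2 groups only. Differences that turned direction had no call on either side except Sparc at day 4 (-0.40 on the fibroblast scale, against 0.94). Without 1 array at a time, Tnc at day 7 against untreated ranged over -0.10 to 0.13 and, between day 7 and day 4, Sparc over -0.10 to 0.23 and Fbln2 over -0.26 to 0.12. Between day 7 and day 4, Eln (0.054), Fbln1 (0.29) and Fbln2 (0.47) also turned on the fibroblast scale, and Fbln2 (0.043) on the epithelial scale. The cause of these changes was not tested. Samples were not treated as paired by replicate number. Deviations of same-numbered arrays correlated at -0.12 to 0.18 across all tested genes, which cannot exclude a pairing. The replicate block moved the Thbs2 value between day 7 and day 4 to an adjusted p of 0.058 and changed no other member call. Over all genes, 4574 were higher and 2342 lower at day 4 than in untreated mice (66.1% higher), against 2124 and 4454 (32.3%) on the epithelial scale and 237 and 8557 (2.70%) on the fibroblast scale. At day 7 the split of 3509 and 2406 (59.3%) became 1751 and 4080 (30.0%) and 413 and 6243 (6.20%), and between day 7 and day 4 the split of 1070 and 1921 (35.8%) became 1167 and 1042 (52.8%) and 2438 and 200 (92.4%). That split was also 1349 and 1492 (47.5%) after centring on tested genes and 1334 and 1409 (48.6%) after quantile normalization.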
